A study of Mus musculus with 16 samples.

Results

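The 10 genes described here encode the 4 TEAD transcription factors (Tead1, Tead2, Tead3 and Tead4), their coactivators YAP (Yap1) and TAZ (Wwtr1), and 4 direct targets of these proteins (Ctgf, Cyr61, Ankrd1 and Amotl2). They were taken by symbol from the 48397 genes of the count files. All 10 symbols were found, and all 10 passed the filter on low counts. The study sequenced the RNA of primary hippocampal neurons from wild-type CD1 mouse pups of postnatal days 0 to 2. The neurons received AraC at 3 days in vitro (DIV), were treated at 10 and 13 DIV, and were collected at 17 DIV. Treatment was 10-fold concentrated conditioned medium at 1:10 of the culture volume. The apoE2, apoE3 and apoE4 groups received medium of immortalized astrocytes homozygous for human APOE ε2, ε3 or ε4, and the control group received medium of Apoe-/- astrocytes. Each of the 4 groups has 4 libraries, which carry the replicate numbers 1 to 4. The control medium therefore came from a different cell line that lacks apoE, and all neurons carry their own mouse Apoe. All treated groups are compared with the same 4 control libraries, so the 3 comparisons with control are not independent of each other.

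The Hippo pathway is a kinase cascade in which MST1/2 (Stk4, Stk3) with SAV1 activate LATS1/2, which with MOB1 phosphorylate YAP and TAZ and hold them in the cytoplasm. Unphosphorylated YAP and TAZ enter the nucleus, bind TEAD factors on DNA and raise genes such as Ctgf, Cyr61, Ankrd1 and Amotl2. In the brain YAP and TAZ are known from neural progenitors, astrocytes and vascular and meningeal cells, and mature neurons are known for low YAP. Much of the pathway's control acts on protein phosphorylation and location, which RNA counts do not measure.

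TEAD factors bind the core element GGAATG, which reads CATTCC on the other strand. This element was searched in RefSeq promoter windows (build GRCm38.p6, 250 bases before to 50 after a start site), which were at hand for 7 of the 10 genes. Tead1, Tead4 and Ctgf had no window in the table. Of all 32851 windows, 14.7% held the element on either strand, and 12.6% held it in the 250 bases before the start. Within these 250 bases the element was found for 6 of the 7 genes (Tead3, Yap1, Wwtr1, Cyr61, Ankrd1 and Amotl2), and Tead2 had none. The sequences below are printed because they hold the element in the genes whose levels are described here. Each is 5′ to 3′ on the gene's strand, and capitals mark the element. The whole 250-base window of Cyr61, which overlaps no exon, is given first, and 30-base stretches follow for the other genes.
Cyr61, chr3:145649986-145650235, minus strand: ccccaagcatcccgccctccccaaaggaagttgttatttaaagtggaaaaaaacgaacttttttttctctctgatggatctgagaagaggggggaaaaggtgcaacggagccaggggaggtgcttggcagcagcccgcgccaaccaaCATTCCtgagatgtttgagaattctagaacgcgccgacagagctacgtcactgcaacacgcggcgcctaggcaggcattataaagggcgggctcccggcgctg
Ankrd1, chr19:36120037-36120066, minus strand: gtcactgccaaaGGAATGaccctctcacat
Ankrd1, chr19:36119950-36119979, minus strand: gacactaagtctGGAATGaaaattcacctg
Wwtr1, chr3:57576029-57576058, minus strand: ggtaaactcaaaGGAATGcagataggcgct
Yap1, chr9:8004720-8004749, minus strand: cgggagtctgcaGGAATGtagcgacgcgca
Amotl2, chr9:102717727-102717756, plus strand: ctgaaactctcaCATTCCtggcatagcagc
Tead3, chr17:28350970-28350999, minus strand: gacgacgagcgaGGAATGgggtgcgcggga
Ankrd1 held the element at 2 places, 210 and 123 bases before its RefSeq start, and so did a window of a further Tead3 start, at 123 and 114 bases before it, while 1.02% of all 250-base windows hold it at 2 or more places. All 250 bases of the Ankrd1 window lie in exons of Ankrd1 as GENCODE M21 annotates it, so both of its elements are inside the gene by that annotation. The Amotl2 window (136 bases) and the 2 Tead3 windows with the element (12 and 217 bases) overlap exons of their gene in part. A letter match is a description of the window and not a measured binding site.

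The libraries held 14087723 to 34248172 counts on genes. Neuron markers were present in all libraries, with a summed level of 2879 to 7280 CPM (read counts scaled to an equal library size) over 8 genes. The spread between libraries followed the replicate number more than the treatment. Same-numbered libraries of different groups deviated together from their group means in all 24 pairs (Pearson correlation across genes between 0.362 and 0.831), so a fit with the replicate number as a block is printed beside the fit without it. The scaling used TMM, edgeR's correction of library size for composition. Fold changes are log2 values from edgeR's quasi-likelihood test, and p-values are adjusted by Benjamini-Hochberg over all 17038 genes tested. The test gives no standard error (SE), so the SE was derived as the absolute log2 fold change over the square root of the test's F statistic.

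With no block, none of the 10 genes had an adjusted p below 0.05 in any of the 6 comparisons between groups. In the comparisons of apoE2, apoE3 and apoE4 with control, 0%, 0.00587% and 0.194% of all genes passed. At an unadjusted p below 0.05 there were 1, 3 and 3 of the 10 genes, where 2.79%, 6.43% and 3.3% of all genes passed. DESeq2 called 0, 0 and 1, and 0.17%, 0.352% and 0.534% of all genes, and between isoforms it called none of the 10 (0.0528% of all genes for apoE3 against apoE2, 0.957% for apoE4 against apoE2 and 0.405% for apoE4 against apoE3). With the replicate number as a block, 2 of the 10 genes rose with apoE2, 7 with apoE3 and 6 with apoE4, against 1.73%, 11.7% and 3.3% of all genes in either direction, and none fell. With all libraries of one number left out of the blocked fit, these counts ranged from 0 to 5, 3 to 7 and 1 to 7, and the shares of all genes from 0.120% to 4.14%, 2.41% to 11.3% and 0.808% to 3.04%. DESeq2 with the block called 3, 7 and 6 of the 10 against control, where 4.16%, 15.8% and 5.65% of all genes passed. Between isoforms it called 3 for apoE3 against apoE2 (4.26% of all genes), 3 for apoE4 against apoE2 (7.29%) and 0 for apoE4 against apoE3 (4.13%). The criterion of the study's methods (an unadjusted p below 0.05 and levels that differ by 2-fold or more, applied here to edgeR's p-values) was met by Ankrd1 with apoE2, by Tead2, Tead4 and Wwtr1 with apoE3, and by Tead1, Tead4 and Ankrd1 with apoE4, all higher than control. Among all genes 0.722%, 1.96% and 1.15% met it. Ankrd1 passed the filter on low counts only through its apoE4 libraries and 1 apoE2 library. Of the other 9 genes, none was called with apoE4 by DESeq2 without the block, 5 were by edgeR with the block, and 0, 3 and 2 met the study's criterion. Medians of the 10 log2 fold changes were 0.37 (apoE2), 1.38 (apoE3) and 0.94 (apoE4), beside 0.01, 0.02 and 0.00 over all genes tested. Tead1, Tead2, Tead4, Wwtr1, Ctgf and Ankrd1 are in tables that the study chose on these libraries, so these counts are not independent evidence of a direction.

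**Figure D1:**
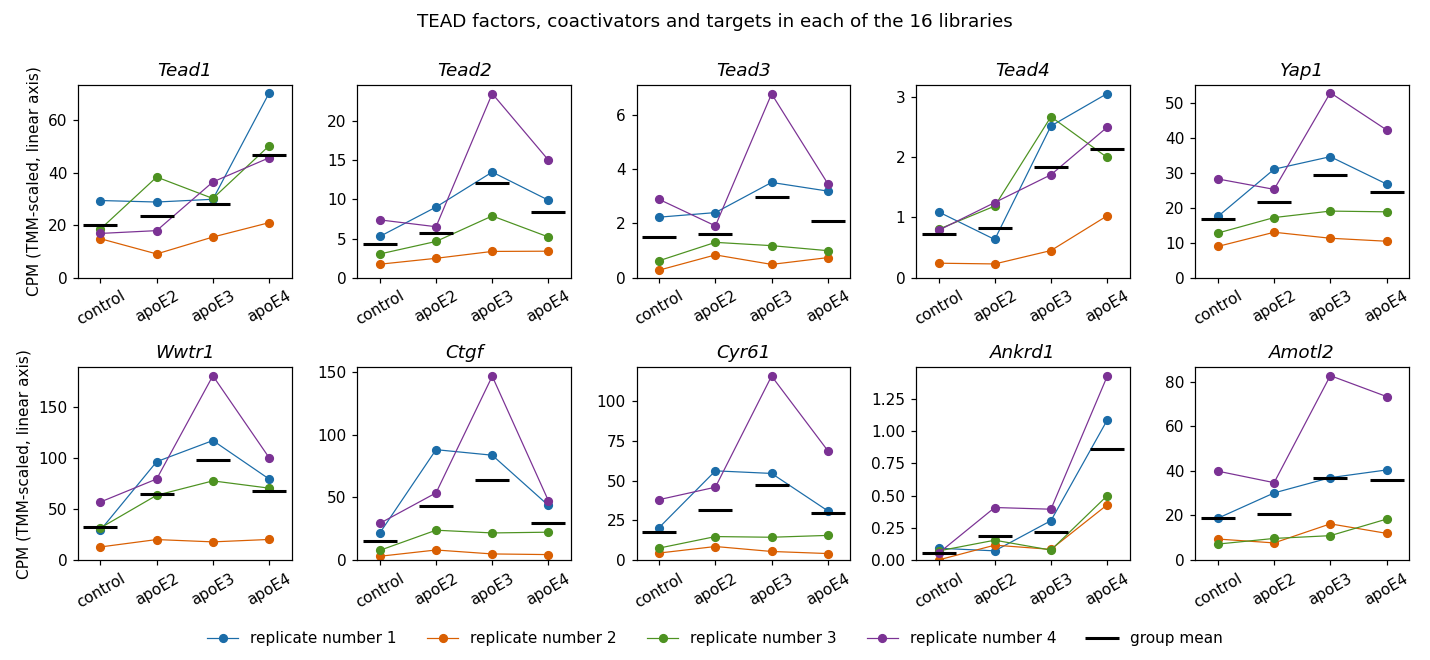
CPM (vertical axis, linear, from 0) of each gene in each of the 16 libraries, by treatment group (horizontal axis). Coloured points of one replicate number are joined across groups, and black bars are group means over 4 libraries. Replicate 2 is the lowest library of every group for 8 of the genes, the exceptions being Ankrd1 and Amotl2. Ankrd1 is the gene whose 4 apoE4 libraries, 0.428 to 1.42 CPM, lie above all other libraries on this scale, narrowly so beside 0.407 CPM in apoE2 replicate 4.

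Tead1, a TEAD factor expressed in many tissues, was measured at 29.5, 14.9, 18.6 and 16.9 CPM in the control libraries of replicates 1 to 4 and at 70.4, 21.0, 50.3 and 45.7 CPM with apoE4. With apoE2 it was at 28.9, 9.09, 38.4 and 17.98 CPM, and with apoE3 at 29.9, 15.5, 30.2 and 36.5 CPM. The apoE4 library was above the control library of the same number in 4 of 4 replicates, by 2.39-, 1.41-, 2.70- and 2.70-fold, while the groups as a whole overlapped. The log2 fold change with apoE4 was 1.23 (SE 0.43, adjusted p = 0.932) without and 1.14 (SE 0.22, adjusted p = 0.0101) with the replicate block, and that call was lost when replicate 1 was left out of the blocked fit. Without apoE4 replicate 1, the unblocked value was 0.97 and no longer met the study's criterion. Tead1 was also higher with apoE4 than with apoE2 in the blocked fit (log2 fold change 1.01, SE 0.22, adjusted p = 0.0160), where 4.44% of all genes passed. That call did not hold without replicate 1 or without replicate 4. Against control, the values were 0.24 (SE 0.42) with apoE2 and 0.49 (SE 0.42) with apoE3, and neither passed in either fit.

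Tead2, the TEAD factor known from embryonic and neural progenitor cells, was at 5.27, 1.73, 3.04 and 7.38 CPM in the control libraries and at 13.5, 3.36, 7.89 and 23.5 CPM with apoE3. It was at 9.02, 2.48, 4.63 and 6.51 CPM with apoE2 and at 9.90, 3.39, 5.20 and 15.01 CPM with apoE4. All 4 apoE3 libraries exceeded the control of the same number, by 1.94- to 3.18-fold, and so did the 4 apoE4 libraries, by 1.71- to 2.03-fold. In the blocked fit Tead2 rose with apoE3 by a log2 value of 1.38 (SE 0.19, adjusted p = 0.000673) and with apoE4 by 0.93 (SE 0.20, adjusted p = 0.0147). The apoE3 call held with each number left out, whereas the apoE4 call held only without replicate 4. Unblocked values were 1.47 (SE 0.62, adjusted p = 0.767) and 0.94 (SE 0.62, adjusted p = 1), and the first fell to 0.92 without apoE3 replicate 4. Tead2 was the only one of the 10 genes that differed between apoE3 and apoE2 in the blocked edgeR fit (0.94, SE 0.19, adjusted p = 0.0277), a comparison in which 1.31% of all genes passed with the block and 0% without. This call did not hold when any one of the 4 numbers was left out.

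Tead3 and Tead4 were far lower. Tead3, a factor known from placenta and muscle, ranged from 0.282 to 6.76 CPM over the 16 libraries, with group means of 1.504 ± 1.25 in control, 1.61 ± 0.681 with apoE2, 2.98 ± 2.83 with apoE3 and 2.10 ± 1.43 CPM with apoE4 (SD, n = 4). It passed no test against control, and its largest blocked value was 0.92 with apoE3 (SE 0.33, adjusted p = 0.0799). Tead4, known for its part in the trophectoderm, was at 1.09, 0.241, 0.803 and 0.786 CPM in control and at 3.05, 1.03, 1.99 and 2.49 CPM with apoE4. With apoE3 it was at 2.51, 0.451, 2.67 and 1.71 CPM, and with apoE2 at 0.634, 0.229, 1.19 and 1.25 CPM. These levels rest on 6 to 70 counts a library. The apoE4 libraries exceeded the controls of the same number by 2.48- to 4.25-fold and the apoE3 libraries by 1.87- to 3.32-fold, with overlap between the groups through replicate 2. In the blocked fit Tead4 rose with apoE3 by 1.29 (SE 0.31, adjusted p = 0.0142), with apoE4 by 1.63 (SE 0.30, adjusted p = 0.00679), and from apoE2 to apoE4 by 1.40 (SE 0.29, adjusted p = 0.0126). The first did not hold without replicate 1 or 3, the second without replicate 1 (adjusted p = 0.0507) and the third without replicate 1 or 2. Unblocked values against control were 1.32 (SE 0.61, adjusted p = 0.770) and 1.54 (SE 0.61, adjusted p = 1). The first lost the study's criterion in 10 of the 16 fits that left out 1 library, and the second in 2, without apoE4 replicate 1 or control replicate 2.

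On the scale of CPM per kilobase of exon, which allows genes to be set side by side, Tead1 and Tead2 made up most of the TEAD transcripts. Tead1 held 29.7% to 70.0% of the summed TEAD level in a library, Tead2 19.8% to 54.0%, Tead3 2.68% to 12.49% and Tead4 3.88% to 15.5%. The 4 libraries in which Tead2 exceeded Tead1 were apoE2, apoE3 and control of replicate 4 and apoE3 of replicate 1. The summed level was 1.38 to 2.65 CPM per kilobase in the 4 libraries of replicate 2, and 2.32 to 9.08 in the other 12.

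Of the coactivators, Yap1, a growth regulator that shuttles between cytoplasm and nucleus, was at 17.5, 8.98, 12.8 and 28.3 CPM in control and at 34.7, 11.3, 19.1 and 53.0 CPM with apoE3. It was at 31.1, 13.0, 17.2 and 25.3 CPM with apoE2 and at 26.8, 10.5, 18.9 and 42.3 CPM with apoE4. The apoE3 and the apoE4 libraries all exceeded the control of the same number, by 1.26- to 1.97-fold and by 1.17- to 1.53-fold. Yap1 rose with apoE3 in the blocked fit (0.72, SE 0.16, adjusted p = 0.0108), a call that did not hold without replicate 1 or 3. Without the block the value was 0.80 (SE 0.50, adjusted p = 0.806), and neither apoE2 (0.36, SE 0.50) nor apoE4 (0.54, SE 0.50) passed in either fit.

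Wwtr1, which encodes TAZ, was at 29.3, 12.8, 31.5 and 57.0 CPM in control. With apoE3 it reached 117, 17.8, 77.7 and 181 CPM. With apoE2 it was at 96.6, 20.02, 63.6 and 79.6 CPM and with apoE4 at 79.6, 20.1, 70.6 and 101 CPM. Each of the 12 treated libraries exceeded the control of its number, by 1.39-fold at the least (apoE3, replicate 2) and 4.003-fold at the most (apoE3, replicate 1), while all 3 treated groups overlapped with control. Wwtr1 was the only one of the 10 genes to rise with all 3 isoforms in the blocked edgeR fit, by 0.97 with apoE2 (SE 0.20, adjusted p = 0.0240), 1.40 with apoE3 (SE 0.20, adjusted p = 0.000727) and 1.01 with apoE4 (SE 0.20, adjusted p = 0.0100). The apoE3 call held with each number left out, and the apoE2 and apoE4 calls did not hold without replicate 1 or 3. Unblocked, the values were 0.99 (SE 0.65), 1.59 (SE 0.66) and 1.05 (SE 0.66), with adjusted p from 0.757 to 1. No difference between isoforms passed for Yap1 or Wwtr1 in either fit.

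Ctgf (CCN2), a secreted matricellular protein and the most used readout of YAP and TAZ activity, was at 21.5, 2.94, 7.68 and 29.3 CPM in control. It was at 88.2, 7.95, 23.8 and 53.6 CPM with apoE2, at 83.8, 4.80, 21.6 and 147 CPM with apoE3, and at 43.6, 4.28, 22.2 and 47.3 CPM with apoE4. All 12 treated libraries were above the control of their number, by 1.45- to 5.02-fold, although the range over replicates within any group was wider than that. In the blocked fit Ctgf rose with apoE2 by 1.55 (SE 0.28, adjusted p = 0.0122) and with apoE3 by 1.78 (SE 0.28, adjusted p = 0.00137), and with apoE4 the value was 1.00 (SE 0.28, adjusted p = 0.0648), which DESeq2 with the block called (0.96, adjusted p = 0.0100). The apoE2 call did not hold without replicate 1 or 3. Between apoE4 and apoE3 the difference was -1.13 (SE 0.99) without and -0.78 (SE 0.26, adjusted p = 0.158) with the block, which passed in neither. About 23.2% of the exon bases of Ctgf are shared with the antisense gene Gm15270, and reads of both cannot be told apart without a stated strand setting.

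Cyr61 (CCN1), a related secreted protein, had 20.4, 4.35, 7.47 and 38.0 CPM in control and 54.5, 5.33, 14.3 and 116 CPM with apoE3. It had 56.1, 8.44, 14.7 and 45.8 CPM with apoE2 and 30.9, 4.02, 15.4 and 68.8 CPM with apoE4. Replicate 2 with apoE4 was the only treated library of Cyr61 below the control of its number. With the block Cyr61 rose with apoE3 (1.16, SE 0.25, adjusted p = 0.00935), though not without replicate 1, and had 0.97 (SE 0.26, adjusted p = 0.0720) with apoE2 and 0.66 (SE 0.25, adjusted p = 0.206) with apoE4. DESeq2 with the block called the apoE2 value (0.95, adjusted p = 0.00784). Unblocked values were 0.83, 1.44 and 0.77 with standard errors of 0.98, 0.99 and 0.98, and the last turned to -0.074 without apoE4 replicate 4.

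Ankrd1, a cardiac and muscle ankyrin-repeat protein and a classic YAP target, was the rarest of the 10 genes. The control libraries held 2, 0, 2 and 1 counts (0 to 0.0909 CPM), and a count of 0 in control replicate 2 allows up to 0.121 CPM, for counting error only. The apoE4 libraries held 16, 15, 9 and 28 counts, or 1.08, 0.428, 0.498 and 1.42 CPM. With apoE2 there were 1, 3, 4 and 16 counts (0.0705 to 0.407 CPM) and with apoE3 4, 2, 2 and 6 (0.0762 to 0.394 CPM). On the scaled CPM all 4 apoE4 libraries lay above all 12 others, but narrowly, at 0.428 (apoE4 replicate 2, 15 counts) beside 0.407 (apoE2 replicate 4, 16 counts). Without the TMM scaling the order of these 2 libraries turns, with 15 of 32455651 and 16 of 34248172 counts on genes. How many of all genes separate in this way was not counted. On CPM without the TMM scaling, which the filter uses, Ankrd1 reached the filter's level of 0.45 CPM in the 4 apoE4 libraries, in 1 apoE2 library and in no other, so it was tested because of the group in which it is high, and its selection is no separate support for the difference. Its log2 fold change with apoE4 was 3.87 (SE 0.77, adjusted p = 0.0740) without and 3.79 (SE 0.51, adjusted p = 0.000715) with the block. DESeq2 gave 3.99 (SE 0.91, adjusted p = 0.00359) and, with the block, 3.92 but no adjusted p, and the fit with no filter gave 3.85 with an adjusted p of 0.0965. Values ran from 3.46 to 4.18 in the fits that left out 1 library or 1 number and still tested it. Ankrd1 failed the filter in 8 of the 16 fits without 1 library.

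Ankrd1, tested because of its high apoE4 libraries, was also higher with apoE4 than with apoE2 (blocked 2.05, SE 0.41, adjusted p = 0.00901) and with apoE3 (2.08, SE 0.43, adjusted p = 0.0237), comparisons in which 4.44% and 1.76% of all genes passed. Its selection favours these differences too, so they are no separate support. Neither held in the 2 blocked fits without a number in which it was tested (adjusted p from 0.0525 to 0.115), and without the block neither passed (adjusted p = 0.420 and 0.694, where 0.252% and 0.147% of all genes passed). With apoE2 and apoE3 the values against control were 1.83 (SE 0.81) and 1.79 (SE 0.85), on the few counts given above. The apoE2 value met the study's criterion, and lost it without control replicate 4, or without all libraries of replicate 4, where it was 1.07.

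Amotl2, an angiomotin family member that binds YAP and is itself a YAP target, was at 18.7, 9.38, 7.12 and 39.9 CPM in control. It was at 36.9, 16.2, 10.9 and 82.7 CPM with apoE3 and at 40.4, 11.9, 18.3 and 73.4 CPM with apoE4. With apoE2, at 30.1, 7.64, 9.65 and 34.7 CPM, 2 libraries lay above and 2 below the control of their number. Both apoE3 and apoE4 exceeded it in 4 of 4. The blocked rises were 0.88 with apoE3 (SE 0.18, adjusted p = 0.00628), 0.93 with apoE4 (SE 0.18, adjusted p = 0.00886) and 0.76 from apoE2 to apoE4 (SE 0.18, adjusted p = 0.0220). The first did not hold without replicate 1 (adjusted p = 0.0527), the second without replicate 1 or 3, and the third without replicate 3 or 4. Unblocked values against control were 0.13, 0.97 and 0.94 with standard errors of 0.75, 0.76 and 0.76.

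**Figure D2:**
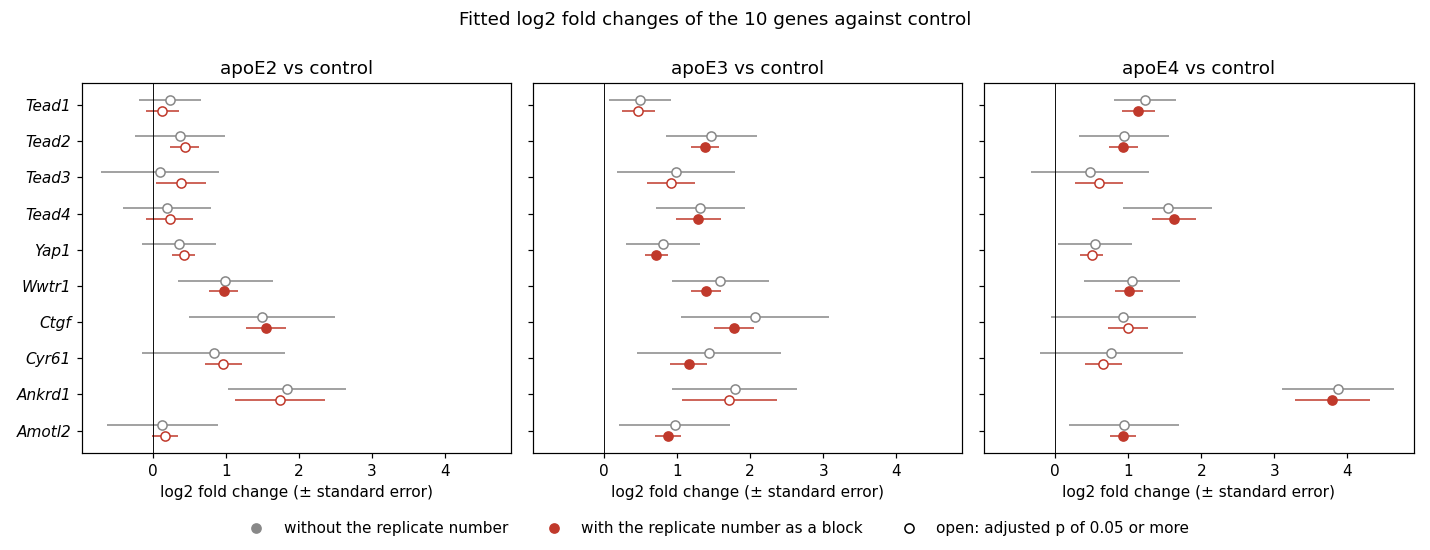
Log2 fold change against control (horizontal axis, bars are standard errors) of the 10 genes (vertical axis), for apoE2, apoE3 and apoE4, without (grey) and with (red) the replicate number as a block. Filled points have an adjusted p below 0.05, and this is reached only in the blocked fit, by 2, 7 and 6 of the 10 genes (0 to 5, 3 to 7 and 1 to 7 when the libraries of one number are left out), where 1.73%, 11.7% and 3.3% of all genes passed.

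The log2 fold changes against control differed between the fits by a median of 0.07 and by at most 0.29 (Ctgf with apoE3, 2.07 without and 1.78 with the block). Between isoforms they differed by up to 0.41 (Cyr61 with apoE3 against apoE2, 0.60 and 0.19). Standard errors without the block were a median of 3.13 times those with it against control, and the common dispersion (the squared variation between libraries beyond counting) was 0.132 without and 0.0178 with the block. Over the 16 libraries, the replicate number held a median of 76.5% of the sum of squares of log2 CPM of the 10 genes and the treatment group 18.4%, compared with 56.1% and 14.4% for all genes tested. Cyr61 had the largest share between numbers, 87.2%, with 7.73% between groups. Ankrd1 had the smallest share between numbers, 17.6%, and the largest between groups, 71.8%. It rests on 0 to 28 counts a library and passed the filter through its apoE4 libraries and 1 apoE2 library, which favours a large share between groups. Tead1 (47.6% and 37.3%) and Tead4 (50.9% and 41.0%) came next to Ankrd1. Mean log2 CPM of Ctgf was 2.25 for replicate 2 and 5.85 for replicate 4, a range of 3.59, while its group means ranged over 1.61.

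**Figure D3:**
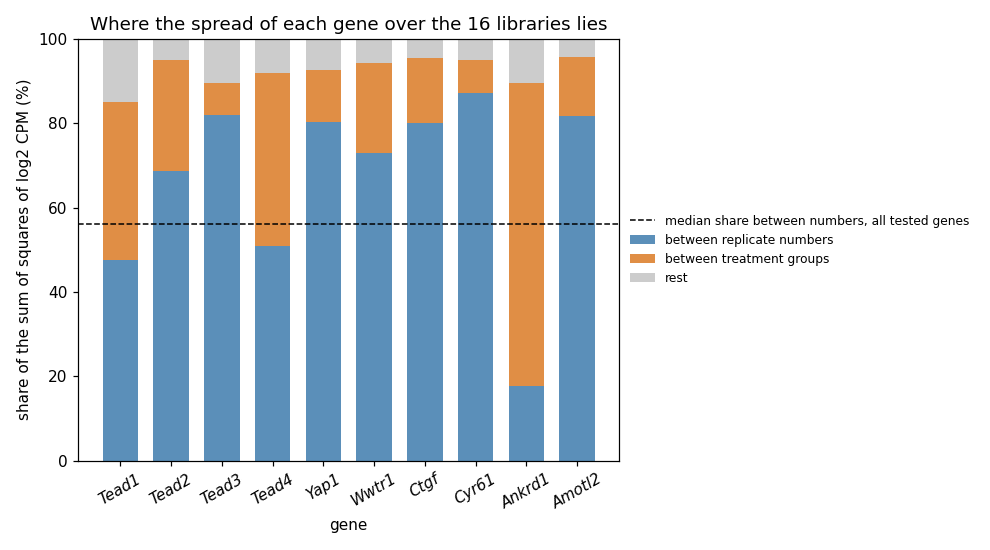
Share of the sum of squares of log2 CPM over 16 libraries (vertical axis, percent) that lies between replicate numbers (blue), between treatment groups (orange) and in the rest (grey), for each gene (horizontal axis). The dashed line is the median share between numbers over all tested genes, 56.1%, and 7 of the bars exceed it, while Tead1, Tead4 and Ankrd1 do not.

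The levels of the 10 genes per kilobase, averaged over the 16 libraries, were ordered as Cyr61 (15.6 CPM per kilobase), Wwtr1 (13.8), Ctgf (13.3), Amotl2 (4.45), Yap1 (2.503), Tead1 (2.18), Tead2 (1.59), Tead4 (0.384), Tead3 (0.305) and Ankrd1 (0.114). The library ranges of Cyr61 (1.99 to 57.3), Wwtr1 (2.67 to 37.9) and Ctgf (1.03 to 51.4) overlap almost wholly, and so do those of Yap1 (0.970 to 5.72), Tead1 (0.670 to 5.19) and Tead2 (0.361 to 4.91), so neighbours in this order are not separated beyond their spread. The order of the group means differed too. Ctgf was above Wwtr1 with apoE2 (15.2 and 13.6) and apoE3 (22.5 and 20.6), Tead1 above Yap1 with apoE4 (3.45 and 2.66), Tead2 above Tead1 with apoE3 (2.52 and 2.07), and Tead3 above Tead4 in control (0.224 and 0.203) and with apoE2 (0.240 and 0.229). Ankrd1, at 0 to 0.494, reached into the ranges of Tead3 (0.0420 to 1.01) and Tead4 (0.0637 to 0.848).

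As a description over the 16 libraries, which share replicate numbers, log2 CPM of Yap1 and Cyr61 had a Pearson correlation of 0.983, and Ctgf and Cyr61 of 0.970. The lowest among the 45 pairs was 0.445, between Ctgf and Ankrd1. Tead1 tracked Tead4 (0.840) more than Tead2 (0.642), whereas Tead2 tracked Yap1 (0.963) and Tead3 (0.935). Outside the 10 genes, those most like Yap1 were Man2b2 (0.995), Efemp2 (0.994) and Carhsp1 (0.992). Those most like Wwtr1 were Cd109 (0.982), Ifi202b (0.982) and Trim47 (0.981), those most like Ctgf were Fkbp10, Lmcd1 and Igfbp2 (0.987, 0.987 and 0.984), and those most like Tead1 were Wnk1, Ctdsp2 and Actn4 (0.935, 0.921 and 0.910).

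Upstream of YAP, TAZ and the TEAD factors, a list of 25 Hippo kinases, scaffolds, inhibitors and cofactors was examined, of which 23 were tested and Vgll1 and Vgll2 were not. None met the study's criterion with apoE2 or apoE3, and 4 did with apoE4, all higher, where 1.15% of all genes met it. At an unadjusted p below 0.05 there were 1, 2 and 6 of 23, and 2.79%, 6.43% and 3.3% of all genes. DESeq2 brought 0, 1 and 5 past the criterion, and 0.792%, 2.62% and 1.29% of all genes. With the block, 1 of 23 rose with apoE2 (Lats2), 4 with apoE3 and 6 with apoE4, and none fell, against 1.73%, 11.7% and 3.3% of all genes. The list's median log2 fold changes without the block were 0.05, 0.10 and 0.16 with apoE2, apoE3 and apoE4, beside 0.01, 0.02 and 0.00 for all genes. Ajuba, Limd1, Mob1a and Amotl1 are in tables that the study chose on these libraries.

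Ptpn14, a phosphatase that binds YAP and restrains it and is also a YAP target, showed the largest difference of the list. It was at 14.7, 4.43, 8.24 and 18.1 CPM in control and at 108, 31.1, 51.0 and 90.0 CPM with apoE4. The control and apoE4 libraries did not overlap, but how many of all genes show this was not counted. The genes named from the list were also picked by small p on these same libraries. The log2 fold change of Ptpn14 was 2.62 (SE 0.65, adjusted p = 0.237) without and 2.66 (SE 0.22, adjusted p = 8.9e-06) with the block, and 1.15 with apoE3 in the blocked fit (SE 0.22, adjusted p = 0.00477). Frmd6, a FERM-domain activator of the pathway, was at 21.7, 17.7, 25.2 and 20.2 CPM in control and at 33.6, 26.6, 36.6 and 45.1 CPM with apoE4, again without overlap. It had 0.74 (SE 0.16, adjusted p = 0.115) against control, and 0.90 (SE 0.16, adjusted p = 0.0326) against apoE2, where 0.252% of all genes passed. The latter was the one adjusted call of the list by edgeR without the block. DESeq2 without the block called 2 of the list for apoE4 against control, 3 against apoE2 and 1 against apoE3, where 0.534%, 0.957% and 0.405% of all genes passed.

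Of the MOB1 and LATS genes, Mob1a rose with apoE4 in the blocked fit by 0.99 (SE 0.15, adjusted p = 0.00142), and its paralog Mob1b had 0.37 (SE 0.13, adjusted p = 0.166). The kinase gene Lats2 rose with apoE2 by 0.65 (SE 0.11, adjusted p = 0.00968), and had 0.12 with apoE3 and 0.09 with apoE4. Its counts are uncertain, since 42.4% of its exon bases are shared with the overlapping gene Gm49361. Amotl1, an angiomotin that binds YAP, rose by 0.83 with apoE3 (SE 0.16, adjusted p = 0.00428) and by 1.41 with apoE4 (SE 0.16, adjusted p = 0.000127). The LATS inhibitors Ajuba and Limd1, named here after their values were seen, rose with apoE4 by 2.22 (SE 0.28, adjusted p = 0.000353) and 1.11 (SE 0.18, adjusted p = 0.00294), and with apoE3 by 1.30 (SE 0.28, adjusted p = 0.00833) and 0.77 (SE 0.18, adjusted p = 0.0154), all in the blocked fit. About 25.4% of the exon bases of Sav1 are shared with Atl1. The core kinases Stk3, Stk4 and Lats1 and the scaffolds Sav1 and Nf2 passed in no comparison with control.

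The second list held 18 genes of a published YAP and TAZ target signature, all of them tested, of which Lats2 and Ptpn14 are in the first list too and count in both. The study's criterion was met by 1 gene with apoE2 (Dock5), by 3 with apoE3 (Ccdc80 and Dock5 higher, Nt5e lower) and by 1 with apoE4 (Ptpn14). Over all genes these shares were 0.722%, 1.96% and 1.15%. In the blocked fit 3 rose with apoE2, 7 rose and 2 fell with apoE3, and 5 rose with apoE4, where 1.73%, 11.7% and 3.3% of all genes passed. The list's median was 0.42, 0.56 and 0.44, beside at most 0.02 for all genes. Dock5, a Rac activator, was at 6.001, 3.98, 11.1 and 11.8 CPM in control and at 20.3, 17.8, 42.4 and 17.8 CPM with apoE3, with no overlap, which was not counted over all genes. Its value was 1.58 (SE 0.43, adjusted p = 0.471) without and 1.60 (SE 0.21, adjusted p = 0.000543) with the block.

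Not all of these targets moved upwards. Nt5e, the ecto-5′-nucleotidase CD73, was lower with apoE3, at 1.14, 1.31, 1.30 and 0.656 CPM beside 2.32, 2.82, 2.76 and 1.52 CPM in control (log2 fold change -1.08, SE 0.31, adjusted p = 0.550 without, and -1.09, SE 0.24, adjusted p = 0.00905 with the block). Crim1, named after its values were seen, fell by 0.45 with apoE3 in the blocked fit (SE 0.09, adjusted p = 0.00413). Asap1, an Arf GTPase activator, rose with apoE4 by 0.47 in the blocked fit (SE 0.11, adjusted p = 0.0259). Fjx1 had 0.52 with apoE2 (SE 0.15, adjusted p = 0.968) and did not pass with the block (adjusted p = 0.0772).

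**Figure D4:**
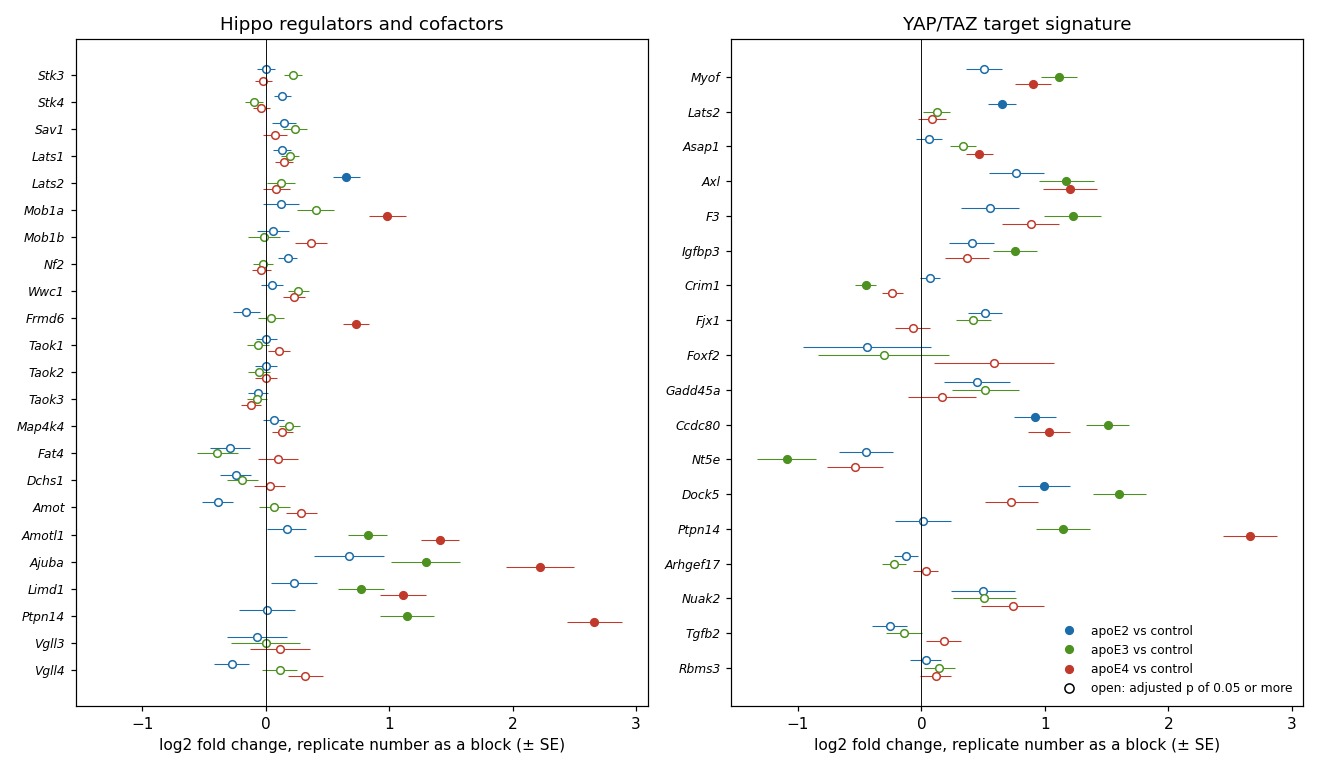
Log2 fold change against control with the replicate number as a block (horizontal axis, bars are standard errors) of the tested Hippo regulators and cofactors (left) and signature genes (right), for apoE2 (blue), apoE3 (green) and apoE4 (red). Filled points have an adjusted p below 0.05, and the largest is Ptpn14 with apoE4 at 2.66, a gene of both lists.

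Marker genes of other cell types also differed between these groups and numbers. The astrocyte markers (8 of 8 tested) summed to 1412 to 3162 CPM in control, 1309 to 3151 with apoE2, 1700 to 6581 with apoE3 and 1571 to 5359 with apoE4. In the blocked fit 7 of 8 rose with apoE3, 3 with apoE4 and none with apoE2, against 11.7%, 3.3% and 1.73% of all genes, and Gfap, the astrocyte filament protein, rose by 1.40 with apoE3 (SE 0.19, adjusted p = 0.000543) and 0.98 with apoE4 (SE 0.18, adjusted p = 0.00778). By number, the astrocyte sum was 1309 to 1700 CPM for replicate 2 and 2994 to 6581 for replicate 4, the same ends as for Ctgf and Wwtr1. The mural markers (6 of 8 tested) summed to 14.05 to 19.5 CPM for replicate 2 and 125 to 338 for replicate 4. They were at 14.05 to 149.6 CPM in control, 18.9 to 125 with apoE2, 19.5 to 338 with apoE3 and 15.7 to 257 with apoE4. The oligodendrocyte lineage markers (8 of 8 tested) lay between 123 and 513 CPM in control and 159 and 936 CPM with apoE3, where 4 rose and 11.7% of all genes passed. They were at 135 to 894 CPM with apoE2 and 126 to 783 with apoE4, and none passed there.

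Fibroblast and meningeal markers (8 of 8 tested) summed to 275 to 344 CPM in control, 264 to 349.5 with apoE2, 316 to 441 with apoE3 and 332 to 453 with apoE4, but Thy1, which neurons also express, made up 53.1% (apoE3) to 70.9% (control) of the mean sum. Without Thy1 the other 7 summed to 24.8 to 188 CPM in control, 28.0 to 207 with apoE2, 30.4 to 361 with apoE3 and 33.4 to 330 with apoE4. With the block, 1 of the 8 rose with apoE2, 3 with apoE3 and 2 with apoE4, against 1.73%, 11.7% and 3.3% of all genes, with list medians of 0.02, 0.67 and 0.56. Fn1, fibronectin, was called with all 3 isoforms (1.26, 1.38 and 1.42), Col1a2 with apoE3 and apoE4 and Col3a1 with apoE3. Microglia markers (8 of 8 tested, 6.95 to 41.8 CPM) and endothelial markers (5 of 8 tested, 2.42 to 10.3 CPM) were low. No microglia marker passed against control in the blocked fit, and 1 of the 5 endothelial markers (Flt1) and 1 of the 6 mural markers (Cspg4, shared with oligodendrocyte precursors) rose with apoE3 and with apoE4, where 11.7% and 3.3% of all genes passed, so with lists this short the apoE3 counts are near the share of all genes. Of the 8 neuron markers, 3 passed with apoE3 in the blocked fit, where 11.7% of all genes did. Gad1 and Snap25 fell and Tubb3 rose, the list's median was -0.26, and Tubb3 was the only 1 of the 8 with a value above 0. No marker was at 0 in all libraries of a group. In bulk RNA, more cells of a type and more RNA per cell cannot be told apart, and the part of these cell types in the values of the 10 genes was not tested.

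**Figure D5:**
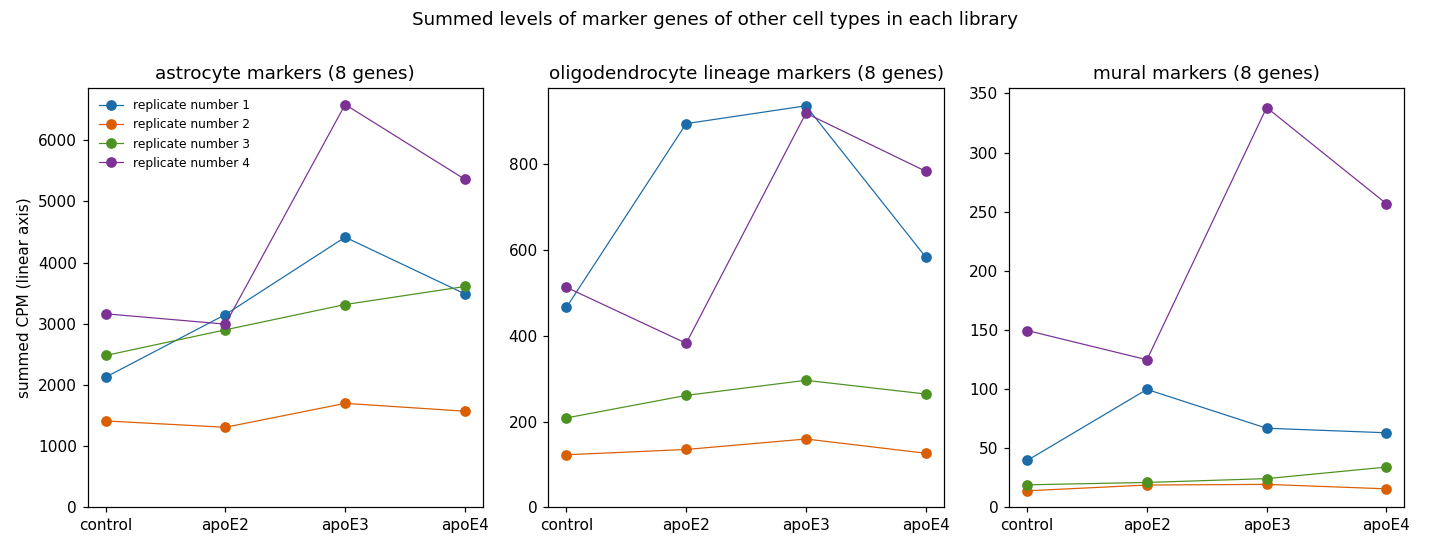
Summed CPM (vertical axes, linear, from 0) of 8 astrocyte, 8 oligodendrocyte lineage and 8 mural marker genes in each library by treatment group (horizontal axis), with libraries of one replicate number joined. Replicate 2 is the lowest number in each panel (mural 14.05 to 19.5 CPM), and replicate 4 holds the highest astrocyte (6581 CPM) and mural (338 CPM) sums, both with apoE3.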

How the data were processed

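The deposited files hold counts of reads per gene, 1 file per library. Per the paper's methods the authors depleted ribosomal RNA, sequenced Illumina TruSeq libraries, aligned with STAR to mm10 and counted with HTSeq. The strand setting and the annotation release are not given in the sources used here. AraC is stated at different concentrations in the labels and the methods and is given here without one. Between 38.4% and 73.7% of the counts of a file lay on no single gene and stayed out of library sizes. In replicate 1 this share was 61.8% in control and 71.6% to 73.7% in the treated libraries, and in replicate 3 it was 51.4% and 55.1% to 65.0%. In replicates 2 and 4 control (53.3% and 64.7%) lay within the range of the treated libraries. The bearing of this on the calls was not tested. Exon lengths and positions came from GENCODE M21, in which Ctgf and Cyr61 are Ccn2 and Ccn1.

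Counts were tested with edgeR 4.0.16 (R 4.3.3) by the quasi-likelihood test, TMM scaling and filterByExpr defaults (10 counts, 17038 genes), with 1 coefficient per group over all 16 libraries and Benjamini-Hochberg adjustment per comparison. The study names 4 independent cultures per condition, and its criterion used unadjusted p-values of Student's t-test. Here the same thresholds were applied to the p-values of edgeR or DESeq2. The replicate numbers come from the sample titles. What a number shares is not stated, but every correlation of same-numbered libraries exceeded 0.1 (lowest 0.362), so they were taken to pair. The lowest chi-square per degree of freedom between libraries of a group was 42.2, and no 2 libraries were counted as 1. The scripts were tested on simulated data without a difference between replicate numbers, so this does not show how the blocked fit behaves on libraries that pair. Alternatives were DESeq2 1.42.0, DESeq2 size factors, no filter, only the 2 groups compared, the block, and leaving out libraries. DESeq2 with the block and the block without each number were chosen after seeing the data. Genes of the 2 pathway lists were named by the smallest p against control, up to 6 a list, and the genes most like a member were the 3 with the highest correlation for Tead1, Yap1, Wwtr1 and Ctgf. The 10 genes, the lists and the markers were chosen with earlier results of these data known.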

Additional observations from a re-analysis of the deposited data

How the results depend on the processing

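The choice that moved the results most was the replicate block. It took the members with an adjusted p below 0.05 from 0 to 2 (apoE2), 7 (apoE3) and 6 (apoE4) against control, and to 1 (apoE3 against apoE2), 4 (apoE4 against apoE2) and 1 (apoE4 against apoE3), while all genes went from 0%, 0.00587% and 0.194% to 1.73%, 11.7% and 3.3%, and from 0%, 0.252% and 0.147% to 1.31%, 4.44% and 1.76%. Ankrd1, which was tested because of its high apoE4 libraries, is the 1 call of apoE4 against apoE3, 1 of the 4 against apoE2 and 1 of the 6 against control. DESeq2 with the block gave 3, 7 and 6 against control (4.16%, 15.8% and 5.65% of all genes), 3 for apoE3 against apoE2 (4.26%), 3 for apoE4 against apoE2 (7.29%) and 0 for apoE4 against apoE3, and it gave Ankrd1 no adjusted p in the comparisons of apoE4 with the other groups or of apoE2 with control, while DESeq2 alone gave 1 with apoE4. Leaving out all libraries of a number from the blocked fit gave 0 to 5 with apoE2 (0 without 1 or 3, 5 without 4), 3 to 7 with apoE3 (3 without 1), 1 to 7 with apoE4 (1 without 1, 2 without 3), 1 to 2 for apoE4 against apoE2 and 0 for the other two. Without the block these counts stayed 0 whichever library was left out.

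By the study's criterion, members with apoE2 went from 1 to 0 with only the 2 groups compared and to 2 with the block by either tool, and with apoE3 from 3 to 6 with the block by either tool, while the shares of all genes went from 0.722%, 1.96% and 1.15% to 1.56%, 4.77% and 2.5% with the block in edgeR. Regulators with apoE3 went from 0 to 1 with DESeq2 and 2 with the block by either tool. Signature genes with apoE2 went from 1 to 0 with only the 2 groups compared and with the block by either tool, those with apoE3 from 3 to 5 with DESeq2 and 7 with the block by either tool, and those with apoE4 from 1 to 3 with the block by either tool. The cause was not tested. Over the fits that left out libraries, 0.510% to 1.35%, 0.871% to 5.32% and 0.745% to 2.15% of all genes met the criterion without the block, and 1.40% to 2.79%, 3.50% to 6.27% and 2.04% to 3.23% with it. These fits gave, without the block and with it, 0 to 1 and 1 to 3 members with apoE2 (0 where Ankrd1 failed the filter, or without control replicate 4), 0 to 5 and 4 to 7 with apoE3, and 0 to 3 and 2 to 5 with apoE4. The apoE3 count was 0 without apoE3 replicate 1 or 4 or control replicate 2 or 3, and 5 without apoE3 replicate 2 (5.32% of all genes, against 1.20% without apoE3 replicate 4), and the apoE4 count was 1 without apoE4 replicate 1 or control replicate 2. For regulators the ranges were 0 to 0 and 0 to 1, 0 to 3 and 1 to 2, and 1 to 5 and 3 to 5, and for signature genes 0 to 1 and 0 to 2, 1 to 7 and 4 to 7, and 1 to 2 and 2 to 4. Regulators with apoE4 were 1 without apoE4 replicate 1 or 4 or control replicate 2 and 2 without control replicate 3, and with apoE3 they were 3 without apoE3 replicate 2. Signature genes with apoE3 were 7 without apoE3 replicate 2, 5 without control replicate 4, and 1 without apoE3 replicate 4 or control replicate 2 or 3.

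In the comparisons with control, signs of the members turned only in values that passed no test, and only in fits that left out libraries, which ran without the block from -0.14 to 0.50 for Tead1, -0.25 to 0.63 for Tead3, -0.10 to 0.55 for Tead4 and -0.26 to 0.81 for Amotl2, all with apoE2, and from -0.074 to 1.47 for Cyr61 with apoE4. With the block, Tead1 was at -0.24 without replicate 3 and Amotl2 at -0.028 without replicate 1. Between isoforms signs turned too, as for Amotl2 with apoE4 against apoE3 (-0.025 without and 0.048 with the block) and Ctgf with apoE3 against apoE2 (0.57, and -0.25 with the block and without replicate 4), none of which passed a test. Ankrd1 rests on 0 to 28 counts a library, and Tead3 and Tead4 on 6 to 103, so depth limits these 3 genes most.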

Other observations

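Chosen after the values were seen, the ratio of Ctgf to Cyr61 counts within a library showed less spread than either gene. In the control libraries of replicates 1 to 4 it was 1.06, 0.676, 1.03 and 0.771. With apoE2 it was 1.57, 0.941, 1.62 and 1.17, and with apoE3 it was 1.54, 0.900, 1.51 and 1.27, so that every library of these groups was above the control of its number. With apoE4 it was 1.41, 1.06, 1.44 and 0.688, above control in 3 of 4. The ranges of the groups overlapped, no test was run on the ratio, and the exon bases that Ctgf shares with Gm15270 enter it.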
